A study of Mus musculus with 9 samples.

Results

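Genes of the BMP and TGF-beta pathways and the Id factors they control were followed across a mouse lung tumour line and 2 tracheal epithelial lines. The 10 genes are the ligands Bmp4 and Bmp7, the secreted antagonist Sostdc1, the inhibitory Smads Smad6 and Smad7, the transcriptional inhibitors Id1, Id2, Id3 and Id4, and the matrix protein gene Tgfbi. They were chosen with earlier results of these data known. They were taken by name, as every probe set that the array annotation assigns to one of these symbols alone, which gave 21 of the 45101 probe sets and 10 of the 18193 genes on the Affymetrix MG-430 2.0 array. The tumour line, MDA-F471, was established from 1 lung adenocarcinoma of a Gprc5a-knockout female, 16 months after an injection of NNK, a tobacco carcinogen. The knockout line (NULL-NLE) came from the trachea of a Gprc5a-knockout mouse aged 3 weeks, and the wild-type line (WT-NLE) from the trachea of a mouse of that age with intact Gprc5a. All were on a C57/BL6 x sv129 background and had 3 arrays each. Each genotype is 1 line from 1 source, and the labels do not say whether the 3 arrays come from separate cultures. The p-values therefore cover array-to-array spread alone, which may be technical. Genotype and line cannot be told apart, and the tumour line differs from the others in organ, carcinogen exposure and time after birth as well.

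BMPs and TGF-beta are secreted dimers that bind paired serine/threonine kinase receptors. BMP receptors activate Smad1, Smad5 and Smad9, TGF-beta and activin receptors activate Smad2 and Smad3, and both sets enter the nucleus with Smad4. Id genes are direct targets of the BMP Smads, and Id proteins, which lack a DNA-binding region, sequester the E proteins that other basic helix-loop-helix factors need as partners. Smad6 and Smad7 are induced by the pathways and feed back to block them. In airway epithelium, BMP antagonism accompanies the proliferation of basal cells, and TGF-beta acts mainly as a brake on epithelial growth.

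Values are log2 signals as deposited, a scale read from their range of 2.65 to 14.9, and 1 unit is a 2-fold step. Each gene is given by its brightest probe set unless another is named. A gene was called, or said to rise or fall, at a limma adjusted p under 0.05 over all 18193 genes together with a difference of at least 2-fold. A log2 signal under 5.15, the 95th percentile of 27 bacterial control probe sets, was treated as not above background. Where all arrays of the dimmer line lay there, folds take the floor as the dim value and are lower bounds. With the highest bacterial control, 5.96, as the floor these bounds shrink, for example to 18.9-fold for Sostdc1 against the wild-type line. The number of arrays limits the precision, since arrays give no counts. The 3 comparisons share arrays in pairs, so their results for a gene are given side by side and not as independent evidence of each other.

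The checks of the lines were brief. Gprc5a read 6.96, 7.02 and 7.09 on tumour arrays and 7.20, 7.09 and 7.18 on knockout arrays, against 8.63, 8.74 and 8.32 on wild-type arrays. The sources used here do not say whether the deletion covers its probe set. Of 5 general epithelial markers, Cdh1 and Epcam averaged 11.7 to 12.9 in every line, whereas the keratins differed between lines. In the tumour, knockout and wild-type lines Krt8 averaged 13.99, 12.66 and 11.68, Krt18 averaged 14.08, 10.59 and 8.03, and Krt19 averaged 12.05, 5.32 and 10.22, with 1 knockout array under the floor. Krt19 was thus lowest in the knockout line, as Id2, Smad6 and Bmp7 were. Airway basal markers other than Ngfr were high in both tracheal lines and lower in the tumour line. The summed signal of 6 such genes, Ngfr included, was 9.26 to 9.52 log2 in tumour arrays, 15.91 to 15.94 in knockout arrays and 15.99 to 16.10 in wild-type arrays. Krt17 and Trp63 were under the floor in the tumour line. Ngfr averaged 6.39, 6.52 and 6.47 in the tumour, knockout and wild-type lines. The alveolar marker Sftpc averaged 5.72, 5.74 and 5.78 in the tumour, knockout and wild-type lines, close to the background level, and Nkx2-1 averaged 5.35, 5.47 and 5.18. Also on the alveolar list, Sftpb averaged 7.85, 7.99 and 7.68 and the lipid transporter gene Abca3 averaged 9.52, 9.62 and 9.64. Summed signals of 3 club cell markers were 6.96 to 7.17 on tumour arrays, 10.88 to 11.98 on knockout arrays and 10.98 to 11.20 on wild-type arrays, through Cyp2f2 at 5.77, 11.32 and 11.07, while Scgb1a1 was under the floor on every array. Scgb3a2 averaged 5.61, 5.88 and 5.75. Of these 3 markers only Cyp2f2 was thus low in the tumour line, as Tgfbi and Id4 were. Summed fibroblast markers lay between 8.79 and 8.99 in all arrays. Summed smooth muscle markers were 8.95 to 9.17, 10.16 to 10.18 and 11.28 to 11.52 in the same order of lines, with Acta2 at 8.23, 9.84 and 11.24 and Myh11 between 5.42 and 5.54. The 3' to 5' difference of beta-actin, a sign of RNA quality, ran from 0.37 to 0.74 on tumour arrays, 0.90 to 0.95 on knockout arrays and 0.75 to 1.78 on wild-type arrays, with wild-type replicate 3 the highest. The part of these differences in the results below was not tested.

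Between the knockout and wild-type lines, most of the 10 genes fell. All 4 Id genes were lower in the knockout line, Id3 by 12.6-fold, Id2 by 9.27-fold, Id4 by 5.74-fold and Id1 by 2.12-fold. Sostdc1 was at least 33.2-fold lower and dropped to background level, Smad6 was 4.08-fold lower, Tgfbi 2.90-fold and Bmp7 2.02-fold. Bmp4 alone rose, by 2.44-fold, and Smad7 was not called. In all, 8 members fell and 1 rose, where 2.98% of all genes fell, 1.9% rose and 4.88% were called either way. Members and the pathway lists below were chosen with earlier results of these data known. Their shares beside those of all genes are therefore a description and not a test. The arrays of the 2 lines did not overlap for any of the 10 members, which also held for 39.1% of all genes, and the members' median log2 difference was -1.78, against -0.00 for all genes. By single probe sets, 17 of 21 fell and 1 rose, where 3.71% of all 45037 non-control probe sets were called. Id1 and Bmp7 lay near the 2-fold threshold. The call of Id1 was lost without wild-type replicate 1 (-0.98), and that of Bmp7 without wild-type replicate 1 (-0.95) or 3 (-0.98) or knockout replicate 1 (-0.99) or 3 (-0.98).

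Between the tumour and knockout lines, the members split. Id2 was 13.7-fold higher in the tumour line, Smad7 3.76-fold and Smad6 2.79-fold, while Tgfbi was at least 41.2-fold lower and Id4 at least 10.3-fold lower, or 1.63-fold and not called by another Id4 probe set. So 3 members rose and 2 fell, where 7.79% of all genes rose, 6.38% fell and 14.2% were called either way. The other 5 members were not called. Of these Bmp7 (0.97), Id3 (-0.98), Bmp4 (-0.85) and Id1 (-0.85) had adjusted p-values under the threshold but differences under 2-fold, and Sostdc1 was at background level in both lines. Arrays did not overlap for any of the 10 members, as for 52.3% of all genes. Of the 21 probe sets 7 rose and 6 fell, where 11.4% of all probe sets were called. Without knockout replicate 2 Id3 (-1.06) and Bmp7 (1.02) were called, without tumour replicate 1 Id3 (-1.12) and Bmp7 (1.02), and without tumour replicate 2 Bmp4 (-1.01).

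Between the tumour and wild-type lines, 5 members fell and 1 rose. Tgfbi fell in the tumour line by at least 120-fold, Id4 at least 59.1-fold, Sostdc1 at least 33.2-fold, Id3 24.9-fold and Id1 3.81-fold, while Smad7 was 3.07-fold higher. The size for Id4 depended on the probe set: another, above the floor in every line, was 5.96-fold lower. Of all genes 8.46% fell, 8.09% rose and 16.6% were called either way. Id2, Smad6 and Bmp4 differed by less than 2-fold (0.56, -0.55 and 0.43 log2), and the arrays overlapped for Bmp7 alone, where 54.7% of all genes had arrays that did not overlap. Of the 21 probe sets 2 rose and 11 fell, beside 13.1% called among all probe sets. The members' median log2 difference was -1.24, and -0.60 between the tumour and knockout lines, against 0.01 and 0.00 for all genes.

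**Figure D1:**
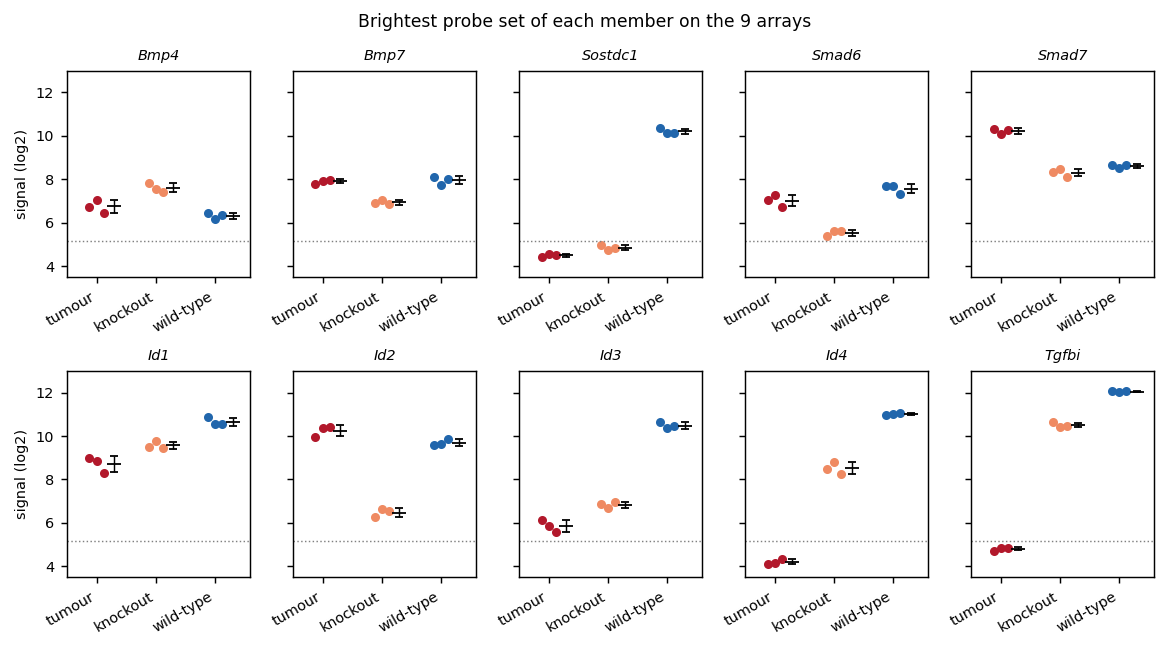
Log2 signal (vertical axis) of the brightest probe set of each member on each array (points) in the tumour, knockout and wild-type lines, with the mean and SD of 3 arrays beside the points and the background floor of 5.15 as a dotted line. Sostdc1 lies above the floor only in the wild-type line, Id4 and Tgfbi lie under it only in the tumour line, and Id2 and Smad6 are lowest in the knockout line.

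**Figure D2:**
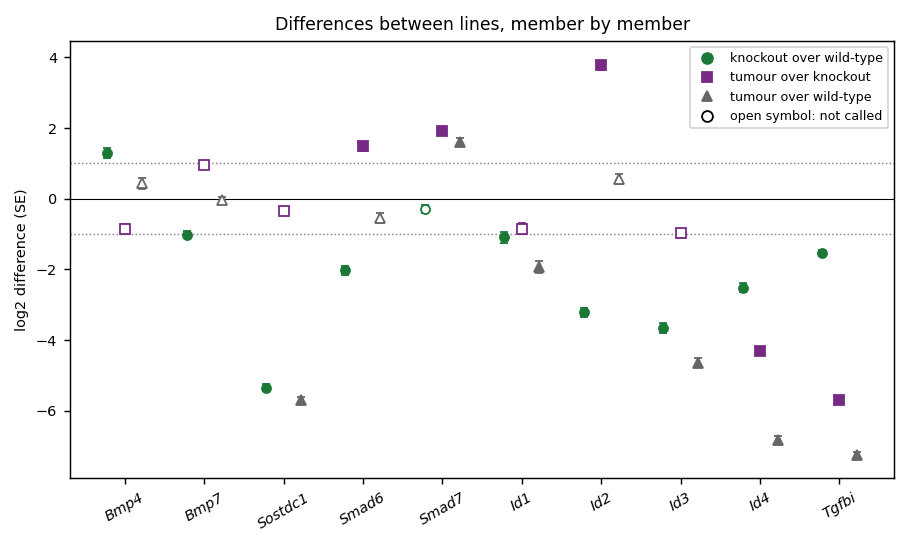
Log2 difference with its standard error (vertical axis) of each member in the 3 comparisons, open symbols being differences that were not called and dotted lines marking 2-fold. Id1, Id3 and Id4 lie below 0 in each comparison, whereas Id2 falls to -3.21 for knockout over wild-type and reaches 3.78 for tumour over knockout.

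Both ligands were called between the knockout and wild-type lines and not between the tumour and wild-type lines. Bmp4 (Entrez gene 12159), a BMP made by lung mesenchyme and by some epithelia, read 6.74, 7.05 and 6.46 in tumour arrays, 7.84, 7.56 and 7.41 in knockout arrays and 6.45, 6.17 and 6.33 in wild-type arrays. The knockout arrays were above both other lines without overlap, and the log2 difference between knockout and wild-type lines was 1.29 ± 0.15 (SE, n = 3 arrays each; adjusted p = 8.66e-06). Bmp7 (Entrez gene 12162), a BMP of many epithelia, went the other way, with 7.79, 7.93 and 7.97 in tumour arrays, 6.88, 7.04 and 6.86 in knockout arrays and 8.08, 7.74 and 8.02 in wild-type arrays. It was lowest in the knockout line, while the tumour and wild-type lines overlapped.

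A dimmer probe set of Bmp7 fell further in the knockout line. It read 7.01, 6.82 and 6.86 on tumour arrays, 4.63, 4.44 and 4.58 on knockout arrays, all under the floor, and 7.07, 6.76 and 7.03 on wild-type arrays. It was therefore at least 3.49-fold lower for knockout against wild-type (-2.40 ± 0.11 log2) and at least 3.36-fold higher for tumour against knockout (2.35 ± 0.11), and it was called in both. Taken as the most variable probe set in place of the brightest, it turned the tumour-over-knockout difference of 0.97 into a called 2.35. The remaining probe set of Bmp7 was dim and was called in the same directions.

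Of 13 measured BMP and GDF ligands beside the members, 1 was called: Bmp2, a close relative of Bmp4, which fell in the knockout line to 6.48, against 9.95 in the wild-type line (11.1-fold, adjusted p = 2.19e-10), and stood at 6.31 in the tumour line. Its fall and the rise of Bmp4 ran in opposite directions between the knockout and wild-type lines. Among 12 TGF-beta and activin ligands, Inhbb, a subunit of activin B, was the only one called. It rose by 2.98-fold in the knockout line and was 4.60-fold lower for tumour cells set against knockout cells (-2.20 log2, or -1.45 with its probe sets averaged). Tgfb1, Tgfb2 and Tgfb3 were not called in any comparison. For knockout over wild-type, tumour over knockout and tumour over wild-type, 7.69%, 0% and 7.69% of the BMP and GDF ligands were called. The shares were 8.33%, 8.33% and 0% of the TGF-beta and activin ligands and 4.88%, 14.2% and 16.6% of all genes.

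Sostdc1 (Entrez gene 66042), a secreted protein that binds BMPs and the Wnt co-receptor Lrp6, separated the wild-type line from both others. It read 4.43, 4.56 and 4.50 in tumour arrays and 4.96, 4.76 and 4.83 in knockout arrays, against 10.34, 10.15 and 10.11 in wild-type arrays. Against wild-type arrays, the signal difference was -5.35 ± 0.10 on knockout arrays (adjusted p = 3.46e-14) and -5.71 ± 0.10 on tumour arrays (adjusted p = 2.16e-15). Both Gprc5a-null lines lay under the floor on every array of this probe set. The second probe set read 4.99 to 5.17 on tumour arrays and 4.84 to 5.22 on knockout arrays, against 9.24, 9.31 and 9.56 on wild-type arrays. Its log2 difference from wild-type arrays was -4.31 ± 0.12 for tumour and -4.30 ± 0.12 for knockout arrays.

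Of 16 other secreted antagonists, 1, 2 and 3 were called for knockout over wild-type, tumour over knockout and tumour over wild-type. These are 6.25%, 12.5% and 18.8%, close to 4.88%, 14.2% and 16.6% of all genes. Fstl1, a follistatin-like protein, fell in the knockout line to a background-level 4.68, against 9.83 in the wild-type line, which is at least 25.7-fold, and it read 4.90 in the tumour line. Follistatin (Fst), which binds activins, was 4.14-fold lower in the tumour line than in the knockout line and 7.42-fold lower than in the wild-type line. Nbl1, a BMP antagonist, was higher in the tumour line, by 2.64-fold and 2.66-fold. Noggin (Nog), chordin (Chrd) and Grem1 were not called in any comparison.

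Receptors were called lower more often than higher. Of 19 receptors and co-receptors, the knockout line had 2 lower and 0 higher than in the wild-type line (median -0.05). The tumour line had 4 lower and 0 higher than in the knockout line (median -0.15), and 8 lower and 1 higher than in the wild-type line (median -0.30). In the same order, the shares called were 10.5%, 21.1% and 47.4%, beside 4.88%, 14.2% and 16.6% of all genes. The type I BMP receptor Bmpr1b averaged 4.72 ± 0.31 on tumour arrays, 5.75 ± 0.19 on knockout arrays and 8.18 ± 0.05 on wild-type arrays (SD, n = 3 each). It was 5.39-fold lower for knockout and at least 8.17-fold lower for tumour against wild-type. Rgma, a BMP co-receptor, was lower by 2.94-fold for knockout against wild-type and by 8.60-fold for tumour against wild-type. Bmpr1a, the more widely expressed type I receptor, fell in tumour cells by 2.29-fold relative to knockout cells and was 2.50-fold lower than in the wild-type line, and Bmpr2, the type II receptor, was 2.21-fold lower than in the wild-type line. The type I TGF-beta receptor Tgfbr1 was the one that rose, by 2.74-fold for tumour against wild-type. Tgfbr2 was not called, at 11.43 in the tumour, 12.34 in the knockout and 11.63 in the wild-type line.

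Most of the receptor calls in the tumour line depended on the probe set or lay at 2-fold. With all probe sets of a gene averaged, the calls of Bmpr1a (-0.49 for tumour against knockout and -0.41 against wild-type), Bmpr2 (-0.45), Acvr1b (-0.63), Acvr2a (-0.35), Rgmb (-0.63), Tgfbr3 (-0.54) and, between tumour and knockout, Bmpr1b (-0.37) were lost. The other Bmpr1b calls held but shrank to -1.21 for knockout and -1.59 for tumour, each over wild-type. The rise of Tgfbr1 was 2.58 log2 by its most variable probe set, against 1.45 by its brightest.

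**Figure D3:**
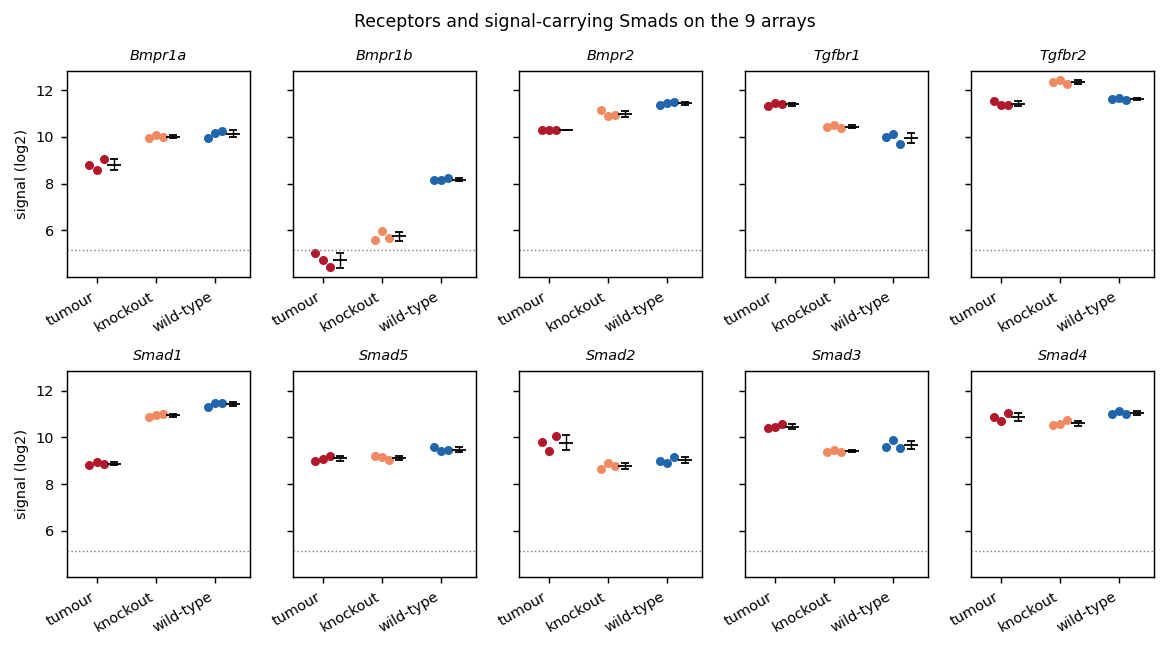
Log2 signal (vertical axis) of BMP and TGF-beta receptors and of the signal-carrying Smads on each array (points) in the tumour, knockout and wild-type lines, with the mean and SD of 3 arrays and the background floor of 5.15 as a dotted line. Smad1 is at 8.87 in the tumour line, against 10.95 in the knockout and 11.42 in the wild-type line, while Smad3 and Tgfbr1 are highest in the tumour line.

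Among the signal-carrying Smads, the BMP Smad Smad1 was the one that fell. It averaged 8.87 ± 0.06 in the tumour line, against 10.95 ± 0.06 in the knockout and 11.42 ± 0.10 in the wild-type line (SD, n = 3 each), a 4.21-fold and a 5.85-fold difference (adjusted p = 7.21e-11 and 5.77e-12, in that order). With the _x_at and _s_at probe sets left out, the difference of Smad1 between tumour and knockout arrays was -1.44 in place of -2.07. Smad5 was not called in any comparison, and Smad9 read between 4.79 and 5.02 on average. Smad3, which carries the TGF-beta and activin signal, rose by 2.08-fold for tumour against knockout, and that call was lost with quantile normalization (0.997 log2). Smad2 rose by 2.00-fold in the same comparison on its brightest probe set, but its most variable probe set went the other way (-0.88) and its averaged probe sets differed by 0.06. Smad4 was not called.

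The inhibitory Smads differed from each other. Smad6 (Entrez gene 17130), which acts mainly on BMP signals, read 7.03, 7.29 and 6.74 in tumour arrays, 5.37, 5.63 and 5.60 in knockout arrays and 7.67, 7.68 and 7.33 in wild-type arrays. It was lowest in the knockout line without overlap, with log2 differences of -2.03 ± 0.14 for knockout against wild-type (adjusted p = 4.66e-08) and 1.48 ± 0.14 for tumour against knockout (adjusted p = 3.86e-07). Smad6 has 1 probe set here, and its knockout values lay close to the floor. Smad7 (Entrez gene 17131), which blocks both BMP and TGF-beta receptors, read 10.31, 10.07 and 10.27 in tumour arrays, 8.33, 8.45 and 8.12 in knockout arrays and 8.65, 8.50 and 8.64 in wild-type arrays. It was highest in the tumour line, by 1.91 ± 0.11 over the knockout and 1.62 ± 0.11 over the wild-type line. Between knockout and wild-type it differed by -0.29 ± 0.11 (adjusted p = 0.0555). A second Smad7 probe set rose in the tumour line by 2.05 ± 0.20 and 1.25 ± 0.20, and differed by -0.80 ± 0.20 between knockout and wild-type with overlapping arrays.

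Called regulators of the Smads were lower for knockout against wild-type and higher for tumour against either tracheal line. In the order knockout over wild-type, tumour over knockout and tumour over wild-type, 10%, 25% and 15% of 20 Smads and regulators were called. Of all genes, 4.88%, 14.2% and 16.6% were. Strap rose in the tumour line by 1.10 log2 over the knockout and 1.01 over the wild-type line. Both its calls were lost with its probe sets averaged (0.543 and 0.575). The co-repressor Tgif1, itself a TGF-beta target, rose in tumour cells by 3.30-fold relative to knockout cells and was 5.48-fold higher than in the wild-type line. Its relative Tgif2 was 2.73-fold lower in the knockout than in the wild-type line, and the co-repressor Ski was 2.02-fold lower there. The call of Ski was lost with quantile normalization (-0.94) and without wild-type replicate 2 (-0.98), knockout replicate 2 (-0.98) or knockout replicate 3 (-0.99).

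All 4 Id genes fell in the knockout line, as counted above. Upstream sequences are shown for Id2, Id3 and Id4, which fell most among the Id genes in the knockout line, and for Tgfbi, which dropped to background level in the tumour line. Each is the 250 bases before the RefSeq start on the gene's strand, build GRCm38.p6, 5′ to 3′. Capitals mark GTCTG or its complement CAGAC, the core of the Smad box bound by Smad3 and Smad4, and GGCGCC, the GC-rich core bound by BMP Smads in the mouse Id1 gene.
Id2, chr12:25096093-25096342, minus strand: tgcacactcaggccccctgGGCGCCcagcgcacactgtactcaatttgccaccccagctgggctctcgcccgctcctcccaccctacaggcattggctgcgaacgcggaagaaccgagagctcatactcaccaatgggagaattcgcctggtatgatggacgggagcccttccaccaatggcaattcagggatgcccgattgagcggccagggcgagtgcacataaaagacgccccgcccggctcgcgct
Id3, chr4:136143572-136143821, plus strand: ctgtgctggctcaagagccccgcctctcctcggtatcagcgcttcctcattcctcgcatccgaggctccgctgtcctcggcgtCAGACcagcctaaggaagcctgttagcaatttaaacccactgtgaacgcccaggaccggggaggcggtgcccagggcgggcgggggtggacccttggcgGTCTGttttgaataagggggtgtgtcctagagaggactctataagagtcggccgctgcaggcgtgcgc
Id4, chr13:48260866-48261115, plus strand: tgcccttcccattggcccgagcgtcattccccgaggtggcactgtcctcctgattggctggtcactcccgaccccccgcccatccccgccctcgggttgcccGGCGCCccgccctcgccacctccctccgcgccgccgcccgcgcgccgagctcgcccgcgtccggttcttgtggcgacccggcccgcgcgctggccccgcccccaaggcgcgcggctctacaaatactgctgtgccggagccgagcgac
Tgfbi, chr13:56609336-56609585, plus strand: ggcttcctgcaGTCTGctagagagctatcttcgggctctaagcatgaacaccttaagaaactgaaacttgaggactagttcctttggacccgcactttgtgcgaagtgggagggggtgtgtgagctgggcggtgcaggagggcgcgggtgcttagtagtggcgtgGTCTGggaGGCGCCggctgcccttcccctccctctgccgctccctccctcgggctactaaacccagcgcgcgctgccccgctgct

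Both strands were searched, and the marked motifs do not overlap each other. Id3 holds 2 Smad boxes, beginning 167 and 68 bases before the start, and no GGCGCC. Id2 and Id4 each hold 1 GGCGCC, at 231 and 148 bases, and no Smad box. Tgfbi holds 2 Smad boxes, at 239 and 85 bases, and a GGCGCC at 77. Of all 32851 RefSeq promoter windows of this length, 42.2% hold a Smad box and 9.59% hold GGCGCC. The E-box CANNTG, the site of the E proteins that Id factors sequester, is in 66.2% of all windows, once in Id2 and in neither Id3, Id4 nor Tgfbi. The Bmp4 window holds 3 E-boxes and neither Smad motif, and the Smad6 window holds none of the 3 motifs. Promoter windows were matched for 6 of the 10 members, and these matches are a description of the letters and not of binding.

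Id1 (Entrez gene 15901), the Id gene most widely used as a BMP readout, was lowest in the tumour line and highest in the wild-type line. It read 9.01, 8.84 and 8.32 in tumour arrays, 9.50, 9.77 and 9.44 in knockout arrays and 10.86, 10.55 and 10.55 in wild-type arrays. No arrays of different lines overlapped, with log2 differences of -1.93 ± 0.16 between tumour and wild-type arrays (adjusted p = 6.85e-08), -1.08 ± 0.16 between knockout and wild-type arrays (adjusted p = 9.63e-05) and -0.85 ± 0.16 between tumour and knockout arrays. Id3 (Entrez gene 15903) read 6.14, 5.85 and 5.56 in tumour arrays, 6.85, 6.67 and 6.96 in knockout arrays and 10.64, 10.37 and 10.45 in wild-type arrays. Both Gprc5a-null lines were low and the wild-type line was high, with -3.66 ± 0.14 for the knockout line (adjusted p = 6.35e-11) and -4.64 ± 0.14 for the tumour line (adjusted p = 6.84e-13), each set against wild-type arrays. The Id3 values on tumour arrays lay close to the floor of 5.15.

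Id4 (Entrez gene 15904), which can oppose the other Id proteins, read 4.11, 4.17 and 4.33 in tumour arrays, 8.47, 8.81 and 8.26 in knockout arrays and 10.98, 11.04 and 11.08 in wild-type arrays. By this probe set it was at background level in the tumour line and intermediate in the knockout line. Against wild-type arrays the signal difference was -2.52 ± 0.12 on knockout arrays and -6.83 ± 0.12 on tumour arrays, and tumour arrays differed by -4.31 ± 0.12 from knockout arrays (largest adjusted p = 1.17e-09). Of the other 2 probe sets of Id4, 1 was also under the floor on every tumour array. It was 4.24-fold lower for knockout against wild-type, and in the tumour line at least 6.21-fold lower than in the knockout line and at least 26.3-fold lower than in the wild-type line. The other read 6.70, 6.95 and 6.76 in tumour arrays, against 7.43, 7.50 and 7.60 in knockout and 9.44, 9.23 and 9.47 in wild-type arrays. These tumour values were above the floor. The probe set differed by -0.71 ± 0.10 between tumour and knockout arrays without overlap, which was under 2-fold and not called, and by -2.57 ± 0.10 between tumour and wild-type arrays. How far Id4 fell in the tumour line therefore depended on the probe set, against both tracheal lines.

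Id2 (Entrez gene 15902) was high in the tumour line, unlike the 3 other Id genes. It read 9.97, 10.36 and 10.43 in tumour arrays, 6.26, 6.63 and 6.54 in knockout arrays and 9.59, 9.62 and 9.87 in wild-type arrays. The knockout line was low and both others were high, with -3.21 ± 0.13 for knockout against wild-type (adjusted p = 2.21e-10) and 3.78 ± 0.13 for tumour against knockout (adjusted p = 8.48e-12). Tumour and wild-type lines differed by 0.56 ± 0.13, under 2-fold. A second Id2 probe set gave -1.91 ± 0.21 and 2.58 ± 0.21, and the dimmest, with the knockout arrays under the floor, gave -0.44 ± 0.14 and 0.81 ± 0.14 and was not called. With its probe sets averaged, the Id2 differences were -1.86 and 2.39 and were still called.

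**Figure D4:**
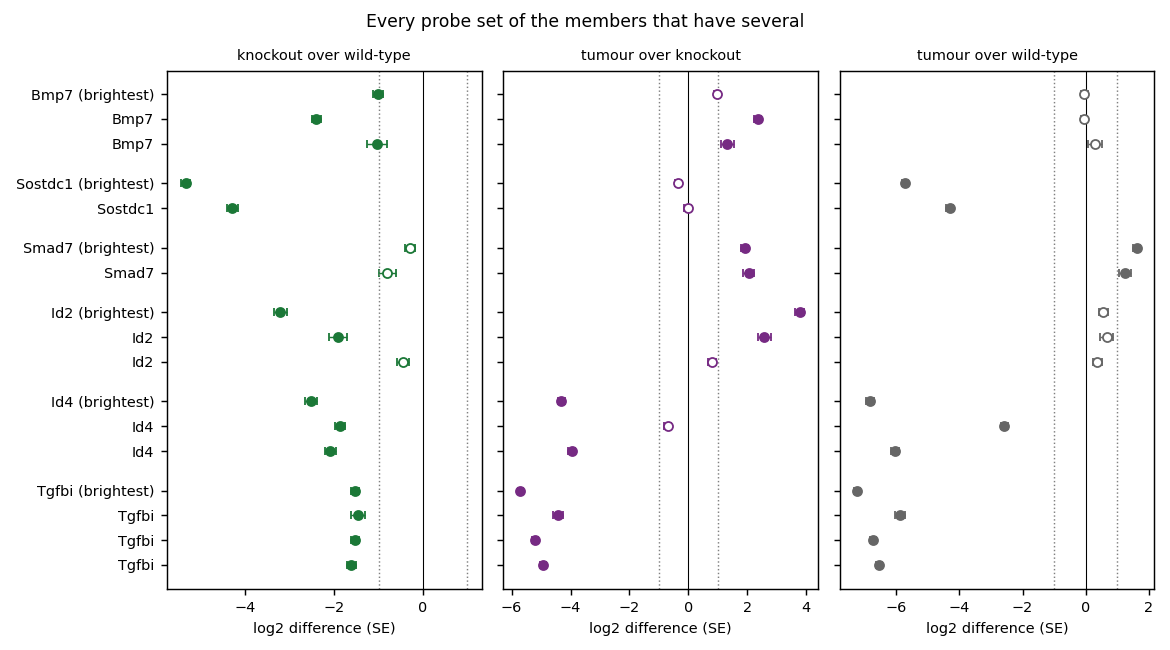
Log2 difference with its standard error (horizontal axis) of every probe set of the 6 members that have several, in the 3 comparisons; open symbols were not called and dotted lines mark 2-fold. The probe sets of Tgfbi were all called, and lie close together for knockout over wild-type but spread from -4.42 to -5.71 for tumour over knockout. In contrast, 1 of 3 Id4 probe sets stays under 2-fold for tumour over knockout (-0.71) and 1 of 3 Id2 probe sets, dim in all lines, stays under 2-fold.

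Among 18 measured basic helix-loop-helix genes, the partners of Id proteins and their relatives, 2 rose and 1 fell in the knockout line relative to the wild-type line. In the tumour line 0 rose and 2 fell, counted against either tracheal line. These shares were 16.7%, 11.1% and 11.1%, beside 4.88%, 14.2% and 16.6% of all genes in the order knockout over wild-type, tumour over knockout and tumour over wild-type. Bhlhe40, a basic helix-loop-helix gene outside these 18, rose in each comparison, by 1.13, 1.43 and 2.57 log2 in the same order. The E protein genes Tcf3 and Tcf12 were not called. Another E protein gene, Tcf4, fell in the tumour line to 5.61 ± 0.16, against 8.61 ± 0.19 in the knockout and 8.67 ± 0.31 in the wild-type line (SD, n = 3 each; 7.97-fold and 8.32-fold). The tumour mean of Tcf4 lay close to the floor of 5.15. With its probe sets averaged, the log2 differences of Tcf4 shrank to -1.52 and -1.65 and were still called. Twist1, a mesenchymal factor, was above the floor only in the knockout line, at 6.53, and was at least 2.61-fold higher than in the wild-type line.

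Tgfbi (Entrez gene 21810), a secreted matrix protein named for its induction by TGF-beta, read 4.72, 4.85 and 4.84 in tumour arrays, 10.64, 10.43 and 10.47 in knockout arrays and 12.07, 12.02 and 12.06 in wild-type arrays. The log2 difference was -1.54 ± 0.09 between knockout and wild-type arrays (adjusted p = 8.02e-09) and -5.71 ± 0.09 between tumour and knockout arrays (adjusted p = 1.70e-15), with the tumour line at background level. The brightest probe set is of the _x_at kind, which can cross-hybridise. The 3 others moved alike, by -1.46 to -1.62 and -4.42 to -5.21 in the same order and by -5.88 to -6.74 between tumour and wild-type arrays, and all were called in all 3 comparisons. On tumour arrays 1 of these 3 was always under the floor, for bounds of at least 14.8-fold below the knockout and at least 42.8-fold below the wild-type line, and the other 2 were under it on 2 of 3 arrays.

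Other genes induced by TGF-beta were called in both directions. Of 23 measured targets, 4 rose and 2 fell in the knockout line relative to the wild-type line (median 0.04). In the tumour line 6 rose and 5 fell relative to the knockout line (median 0.18), and 7 rose and 5 fell relative to the wild-type line (median 0.31). In the same order, the shares called were 26.1%, 47.8% and 52.2%, beside 4.88%, 14.2% and 16.6% of all genes. Between tumour and knockout lines Ccn2, a secreted matrix signalling protein, differed by 164-fold and was higher in the tumour line, and Thbs1, an activator of latent TGF-beta, was 4.56-fold higher. Cdkn2b, a cell-cycle inhibitor through which TGF-beta arrests epithelial cells, was 13.4-fold lower there, Snai2, a repressor of epithelial genes, was 30.3-fold lower and Timp3, a protease inhibitor, was 8.43-fold lower. In the knockout line, against the wild-type line, Timp3 rose by 9.27-fold, Thbs1 by 3.42-fold and the cell-cycle inhibitor Cdkn1a by 2.82-fold, while the basement membrane collagen Col4a1 fell by 5.33-fold and Col4a2 by 2.61-fold. Between tumour and wild-type lines Ccn2 was 123-fold and Thbs1 15.6-fold higher, and Cdkn2b was 22.2-fold and Snai2 30.7-fold lower. Ccn2 read 6.01, 5.86 and 5.31 on knockout arrays and 6.67, 5.91 and 5.86 on wild-type arrays, so its folds rest on low signals. The same holds for Cdkn2b, at 6.12, 5.59 and 5.83 on tumour arrays. With the _x_at and _s_at probe sets left out, the Snai2 differences were -4.27 against knockout and -3.89 against wild-type arrays, in place of -4.92 and -4.94.

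Of 14 further BMP targets measured beside the members, 0 rose and 1 fell in the knockout line relative to the wild-type line. In the tumour line 0 were called relative to the knockout line, and 0 rose and 2 fell relative to the wild-type line. Dlx3, a homeobox factor of epithelial differentiation, was 2.95-fold lower for knockout and 2.93-fold lower for tumour against wild-type, and both calls were lost when its probe sets were averaged (-0.95 and -0.92). Bambi, a decoy receptor that BMPs induce, was 2.08-fold lower for tumour against wild-type. Msx1, Msx2 and Hey1 were not called. The shares called were 7.14%, 0% and 14.3% in the order knockout over wild-type, tumour over knockout and tumour over wild-type, beside 4.88%, 14.2% and 16.6% of all genes.

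Of 12 genes for latency and activation of the ligands, 2 rose and 0 fell in the knockout line relative to the wild-type line. In the tumour line 2 rose and 2 fell relative to the knockout line, and 2 rose and 1 fell relative to the wild-type line. In the same order, the shares called were 16.7%, 33.3% and 25%, beside 4.88%, 14.2% and 16.6% of all genes. Beside Thbs1, the procollagen and chordin protease Bmp1 was 2.42-fold higher for tumour against knockout (1.28 log2, or 1.99 by its most variable probe set). Its relative Tll1 was above the floor only in the knockout line, at 6.47, and was at least 2.49-fold higher than in the wild-type line. Ltbp4, which stores TGF-beta in the matrix, fell in tumour cells by 2.51-fold relative to knockout cells and was 3.84-fold lower than in the wild-type line.

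Some genes were shared between lists and were counted in each of them. With each gene counted once over the 9 lists together, 137 of 149 listed genes were measured. Between knockout and wild-type lines 13.1% of these were called (8 higher, 10 lower), between tumour and knockout lines 19.7% (11 higher, 16 lower) and between tumour and wild-type lines 23.4% (11 higher, 21 lower), beside 4.88%, 14.2% and 16.6% of all genes. The medians of the listed genes were -0.03, -0.03 and -0.01.

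**Figure D5:**
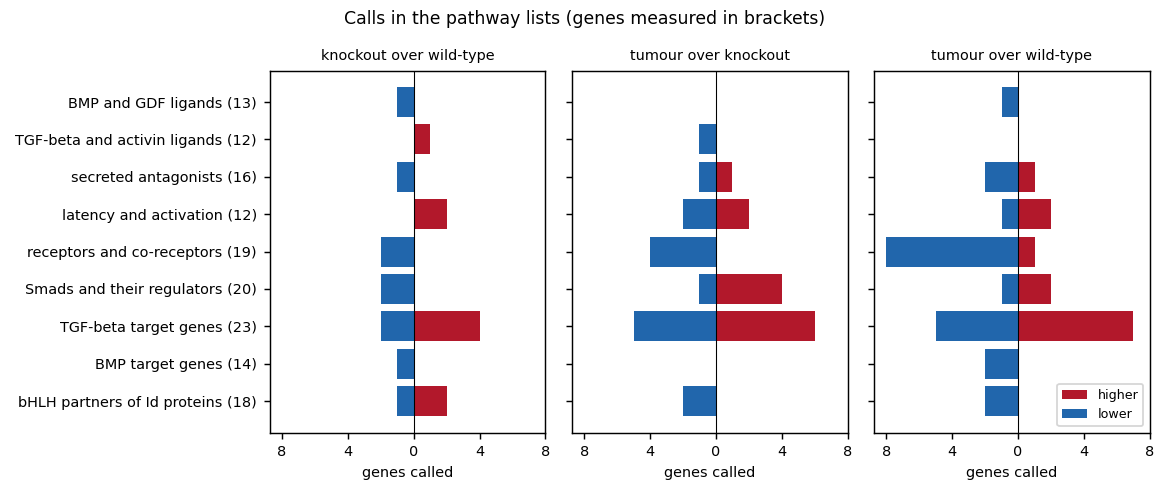
Number of genes called higher (red, right of 0) and lower (blue, left of 0) in each of 9 pathway lists, with the number measured in brackets, for the 3 comparisons. Receptors and co-receptors show 8 lower and 1 higher for tumour over wild-type, though most of these lower calls were lost with probe sets averaged. The TGF-beta target genes are called in both directions in each comparison.

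Genes with the profile most like a member's were taken by the smallest root mean square difference over the 9 arrays after each gene was centred on its own mean. Genes with predicted, clone or Riken names, or given by a probe set ending in _x_at, were left out of this search. Sostdc1 lay closest to the late cornified envelope gene Lce3a (0.10 log2), to C1qtnf3 (0.14) and to Capns2 (0.19), all high in the wild-type line alone. Id3 lay closest to Dpysl3 (0.23), Lgi2 (0.27) and Lce3f (0.29). Tgfbi lay closest to Rcn1 (0.28), Muc15 (0.33) and the basal cell factor Trp63 (0.33), which read 4.32 in the tumour, 10.69 in the knockout and 12.05 in the wild-type line. Id2 was nearest to Tspan13 (0.27), Cap1 (0.41) and Pgap1 (0.47), and Id4 to Adamts1 (0.41), Tslp (0.48) and Antxr1 (0.49). Smad7 was nearest to Urb1 (0.09), Aldh7a1 (0.10) and Topbp1 (0.11). Id1 was nearest to Zmynd8 (0.19), Hdgfl3 (0.20) and Saraf (0.20), Smad6 to Icam1 (0.27), Pogk (0.28) and Fbln1 (0.28), Bmp4 to H2-Ab1 (0.18), Cdkn1a (0.18) and Emc9 (0.19), and Bmp7 to Gnb1 (0.12), Utp11 (0.14) and Pank2 (0.14). A small distance is easier to reach for a gene that changes little, and these arrays fall into 3 clusters by line, so the distances are a description of 9 arrays.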

How the data were processed

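RNA from 3 mouse cell lines was hybridised to 9 Affymetrix MG-430 2.0 arrays, 3 per line, after biotin labelling by in vitro transcription, per the labels' protocols. The authors deposited log2 signals, 1 column per array; the sources used here do not give their background correction, summarisation or normalization, and array medians lie between 6.28 and 6.34. Signals compress low values, so differences near the floor of 5.15, set after the data were seen, are understated or rest on background.

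Probe sets were named through the platform annotation: 34945 carried 1 symbol, 932 several and 9160 none, and 64 were controls. The Entrez IDs of all 10 members had the same symbol in RefSeq. Each of 18193 genes was represented by its brightest probe set. Limma 3.58.1 (lmFit, eBayes) in R 4.3.3 was fitted across all genes on 9 arrays, with 6 residual degrees of freedom, two-sided tests and Benjamini-Hochberg adjustment over all genes, and again across 45037 probe sets. The fit was tested on simulated data. Members and pathway lists were chosen with earlier results of these data known. Of the lists, called genes with large changes are named, with up to 6 per list and comparison, but not all that this limit allows. Left out are for example Hes6, Ascl2 and Ltbp3. The receptors, Smads and E proteins whose role is described are named as well. Other genes stated as not called were picked after their values were seen.

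Alternatives were quantile normalization, median centring, leaving out the dimmest 40% of probe sets, other probe-set rules, trended or robust moderation, fits of 2 lines, a replicate block, other fold thresholds and leaving out each array.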

Additional observations from a re-analysis of the deposited data

How the results depend on the processing

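Of 570 recomputed differences of members, 555 kept their direction and their side of the thresholds, 7 became called, 5 lost the call and 3 changed sign. The sign changes were those of Bmp7 for tumour over wild-type, at -0.05 and not called: 0.066 with its probe sets averaged, 0.020 without wild-type replicate 1 and 0.0047 without tumour replicate 1, in a range of -0.153 to 0.020 when each array was left out. Beside the members, 77 calls of pathway genes were recomputed 1459 times; 39 values lost the call and 1, Smad2 for tumour over knockout with the most variable probe set (-0.88), changed sign. Called members numbered 7 to 9, 5 to 7 and 6 to 6 when each array was left out, for knockout over wild-type, tumour over knockout and tumour over wild-type. Without a fold threshold, 4805, 8103 and 8614 genes were called in that order, and 2178, 4881 and 5386 at 1.5-fold, against 888, 2578 and 3012 at 2-fold; for tumour over knockout 10 members and 20 member probe sets were called without a fold threshold, and 9 members at 1.5-fold. The titles give arrays of different lines the same replicate numbers. Deviations from the line means correlated at r from -0.14 to 0.12 over 9 same-numbered pairs and from -0.25 to 0.23 over 18 differently numbered pairs. With means of 3 arrays, these values cannot settle whether same-numbered arrays were handled together. With a replicate block 888, 2578 and 3012 genes were called. With the floor at the highest bacterial control value, 5.96, an alternative chosen after seeing the data, the lower bound for Sostdc1 against the wild-type line was 18.9-fold, those for Tgfbi were 23.5-fold (tumour over knockout) and 68.2-fold (tumour over wild-type), and those for Id4 were 5.87-fold and 33.7-fold in the same order.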
